A study of Mus musculus with 34 samples.

Results

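The genes described here encode the proteasome and its activators in mouse monocytes and macrophages. They are the rows of the deposited table whose symbol begins with Psma, Psmb, Psmc, Psmd, Psme, Psmf or Psmg and a number, with the immunoproteasome genes Psmb8, Psmb9 and Psmb10 left out. This rule took 48 of 24475 genes and used no measured value. The core particle gave 14 of them, 7 in the alpha ring (Psma1 to Psma7) and 7 in the beta ring (Psmb1 to Psmb7). The regulatory cap gave 17, which are 6 ATPases (Psmc1 to Psmc6) and 11 other subunits (Psmd genes). The 2 subunits of the activator PA28 are encoded by Psme1 and Psme2. The remaining members were 3 chaperones of the cap, 4 chaperones of the core, the activators Psme3 and Psme4, the inhibitor Psmf1, the tissue-restricted core subunits Psma8 and Psmb11, and 3 genes that the symbol rule took for their names (Psmc3ip, Psme2b and Psme3ip1).

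The proteasome is the protease that degrades ubiquitin-tagged proteins in the cytosol and nucleus. The alpha and beta rings stack into a barrel with the active sites inside, and the regulatory cap at its end binds ubiquitin chains, unfolds the substrate with its ATPase ring and feeds it in. PA28 docks on the same barrel end without ATP or ubiquitin. Interferon gamma is known to induce Psme1 and Psme2 together with Psmb8, Psmb9 and Psmb10, whose products replace the catalytic subunits Psmb5, Psmb6 and Psmb7, and the peptides cut in this way feed MHC class I presentation.

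Polyadenylated RNA was sequenced from 34 libraries of sorted C57/Bl6 cells in 9 groups. MC38 is a colon adenocarcinoma line and LLC a Lewis lung carcinoma line, each grown as a tumor in mice. The in vivo groups held 4 libraries each: macrophages of MC38 tumors (MC38_TuMac), macrophages of LLC tumors (LLC_TuMac), monocytes of MC38 tumors gated as Ly6C+ CD88+ Sca1+ (TuMon1), monocytes of LLC tumors gated as Ly6C+ CD88+ Sca1- (TuMon2), and Ly6C+ spleen monocytes of the mice with MC38 tumors (MC38_spMon) or LLC tumors (LLC_spMon). Bone marrow Ly6C+ monocytes were cultured with MC38 supernatant (MC38_sup, 3 libraries), with LLC supernatant (LLC_sup, 3 libraries) or untreated (Ctl, 4 libraries). In vivo the monocyte subset and the tumor line coincide, so they cannot be told apart. The labels do not say whether replicates came from separate animals or cultures, so p-values cover the spread between these libraries only.

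A library held 13047772 to 26966644 estimated counts. All 48 members passed the low-count filter in vivo and in culture. Transcripts foreign to monocytes marked 5 libraries. The summed level of 5 fat genes reached 10300 CPM (counts scaled by library size) in MC38_spMon, where replicates 1, 2 and 3 are affected, against at most 12.1 CPM in LLC_spMon. Connective tissue genes reached 2870 CPM in MC38_sup (replicate 3), and muscle genes 239 CPM in Ctl (replicate 2). Totals of members called that rest on these groups are given with and without the 5 libraries, which leaves a single MC38_spMon library. Counts of markers and of other genes that are not members, and most counts by class, are given with all libraries only. The summed level of 6 monocyte and macrophage genes was 7470 to 25200 CPM over all libraries. TuMon1 had 7820 to 8490 CPM, against 15000 to 16200 CPM in TuMon2 (2 genes higher, 4 lower). MC38_TuMac had 7470 to 8020 CPM, against 13500 to 14100 CPM in LLC_TuMac (1 higher, 4 lower). MC38_spMon had 12200 to 16300 CPM, against 16900 to 20900 CPM in LLC_spMon (0 higher, 4 lower). MC38_sup had 8400 to 9560 CPM, against 24600 to 25200 CPM in LLC_sup (2 higher, 2 lower). The part of these differences in the results was not tested. Ly6a, which encodes Sca1, was at 1696 to 1806 CPM in TuMon1, against 29.5 to 39.6 CPM in TuMon2. Ly6c2, which encodes Ly6C, was at 1204 to 1393 CPM in MC38_sup and 12.2 to 14.9 CPM in LLC_sup, against 1520 to 1887 CPM in Ctl, so after culture the cells given LLC supernatant were low for this sorting marker. In bulk RNA, fewer cells of a type and less RNA per cell cannot be told apart.

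Psme1 and Psme2 lie close together on chromosome 14, at chr14:55578494-55581527 and chr14:55587440-55591101 (GRCm38), on opposite strands. The stretches around their starts are shown because interferon gamma is known to induce both genes and because they led the differences of the core, cap and PA28 between the tumors. Each runs from 100 bases before to 25 bases after the RefSeq start (GRCm38.p6), 5′ to 3′ on the gene's strand, at chr14:55578394-55578518 (plus strand) for Psme1 and chr14:55591077-55591201 (minus strand) for Psme2. Capitals mark the core of the interferon-stimulated response element, spelled GAAA, any 2 bases and GAAA, read on either strand.
Psme1: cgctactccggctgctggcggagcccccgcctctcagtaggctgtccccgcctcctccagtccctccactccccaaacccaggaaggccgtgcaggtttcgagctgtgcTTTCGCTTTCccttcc
Psme2: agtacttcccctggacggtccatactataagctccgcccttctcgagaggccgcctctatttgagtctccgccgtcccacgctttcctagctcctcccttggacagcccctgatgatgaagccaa

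The Psme1 match lay on the minus strand, at bases 10 to 19 after the start. No match stood in the Psme2 stretch, which says only that these letters are not in it. RefSeq windows were found for 40 members (44 windows, from 250 bases before to 50 after a start), and 5 of the 44 (11.4%) held the element, against 3.44% of 32851 windows of the same length. The other 4 belonged to Psmb3, Psmd4, Psmd9 and Psmg4. The antioxidant response core TGACNNNGC was in 6 of 44 windows (13.6%) against 12.4% of all. The gamma-activated site TTCNNNGAA was in 2 of 44 (4.55%) against 8.3%, and CCAAT in 15 of 44 (34.1%) against 37.4%. A match is a description of letters, not a site.

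Psme1, the alpha subunit of PA28, was highest in the Sca1+ monocytes of MC38 tumors. Its level was 545, 523, 524 and 610 CPM in TuMon1, against 298, 281, 319 and 322 CPM in TuMon2. In MC38_spMon it was 238, 244, 212 and 271 CPM, and in LLC_spMon 258, 265, 274 and 248 CPM. Every TuMon1 library lay above every library of the other 8 groups, while TuMon2 lay just above the spleen monocytes. The log2 difference of TuMon1 was 0.85 ± 0.10 (SE) against TuMon2 (edgeR adjusted p = 1.22e-07) and 1.19 ± 0.10 against MC38_spMon (edgeR adjusted p = 1.04e-10), and 1.01 without the libraries with foreign transcripts.

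In the LLC tumor the difference of Psme1 from spleen was small. TuMon2 stood at a log2 difference of 0.22 ± 0.10 from LLC_spMon with an edgeR adjusted p = 0.0499, a call that was lost in 10 of the alternative settings. The change from spleen to tumor was larger in MC38 than in LLC by 0.97 ± 0.14 for Psme1 (edgeR interaction, adjusted p = 5.73e-06) and remained called, at 0.79, without the libraries with foreign transcripts.

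Psme2, the beta subunit of PA28, had 315, 305, 320 and 364 CPM in TuMon1, against 180, 145, 174 and 192 CPM in TuMon2. It had 145, 156, 143 and 183 CPM in MC38_spMon and 163, 165, 177 and 154 CPM in LLC_spMon. TuMon1 again lay above all other groups, and TuMon2 overlapped the spleen monocytes of the LLC mice. The log2 difference was 0.92 ± 0.14 for TuMon1 against TuMon2 (edgeR adjusted p = 8.54e-06), 1.05 ± 0.14 for TuMon1 against MC38_spMon (0.82 without the libraries with foreign transcripts) and 0.07 ± 0.14 for TuMon2 against LLC_spMon (edgeR adjusted p = 0.698). The difference between these changes from spleen was 0.99 ± 0.20 (edgeR adjusted p = 0.000313; 0.76 without the libraries with foreign transcripts, adjusted p = 0.0451).

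Macrophages kept the order of the tumors at a lower level. Psme1 was at 424, 386, 408 and 426 CPM in MC38_TuMac, against 194, 160, 236 and 238 CPM in LLC_TuMac, with a log2 difference of 0.99 ± 0.10 (edgeR adjusted p = 8.7e-09). Psme2 was at 290, 260, 274 and 216 CPM in MC38_TuMac, against 99.5, 77.6, 134 and 143 CPM in LLC_TuMac (1.20 ± 0.14, edgeR adjusted p = 1.78e-07). The groups did not overlap for either gene. LLC_TuMac fell below TuMon2 by 0.56 ± 0.10 (Psme1) and 0.61 ± 0.14 (Psme2) on the log2 scale, and MC38_TuMac fell below TuMon1 by 0.42 ± 0.10 for Psme1. For Psme2 the log2 difference of MC38_TuMac from TuMon1 was -0.32 ± 0.14 and missed the threshold (edgeR adjusted p = 0.052), which it passed in 6 of 16 alternative settings. Every MC38_TuMac library lay below every TuMon1 library. The macrophage change itself did not differ detectably between tumors, with differences of 0.14 ± 0.14 for Psme1 (edgeR adjusted p = 0.575) and 0.28 ± 0.20 for Psme2 (0.385).

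**Figure D1:**
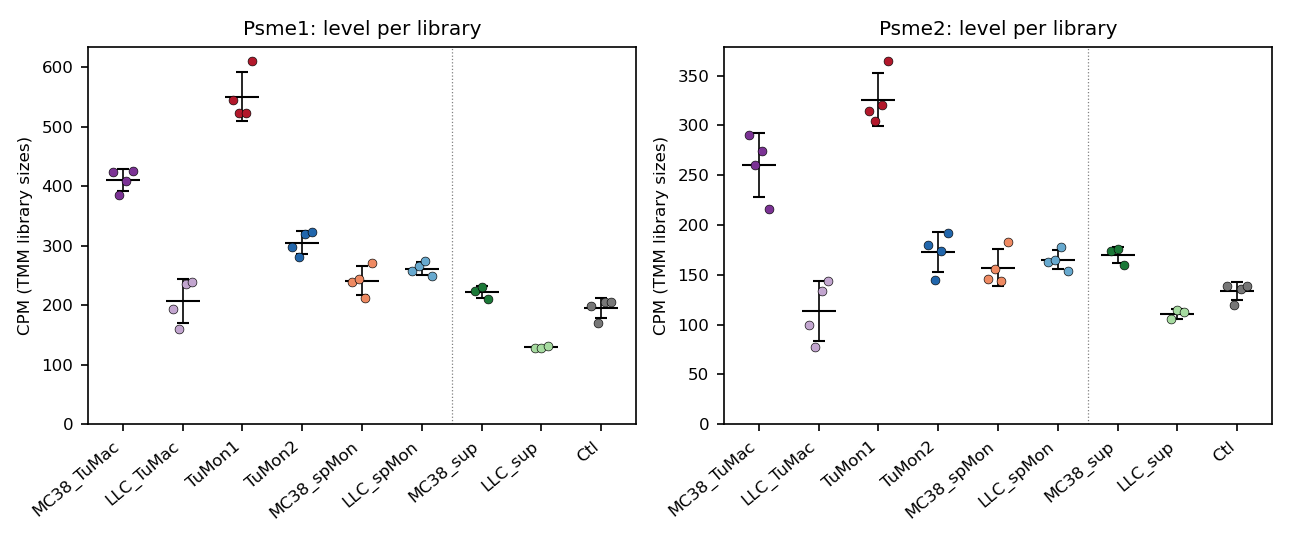
Level of Psme1 and Psme2 in CPM in each library of the 9 groups; points are libraries, bars the group mean ± SD, and the dotted line separates in vivo from cultured cells. TuMon1 averaged 550.3 CPM of Psme1 and 325.9 CPM of Psme2, the highest of the groups, and LLC_sup averaged 129.2 and 111.0 CPM.

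The split of reads between Psme2 and Psme2b, a near-identical gene that the symbol rule also took, is uncertain. Their transcripts were identical at 789 of 794 aligned positions (99.4%), and the counts of both were not whole in 34 of 34 libraries. Psme2b made up 6.9% to 22.8% of the pair and was lower in TuMon2 than in LLC_spMon (-0.62) and in LLC_TuMac than in TuMon2 (-0.96). The sum of both averaged 288 CPM in MC38_TuMac, 128 in LLC_TuMac, 367 in TuMon1, 201 in TuMon2, 194 in MC38_spMon and 209 in LLC_spMon, so the order of the groups did not rest on the split between the copies, apart from LLC_spMon standing just above TuMon2 on the sum. Exons of Psme1 overlap those of Emc9 on the opposite strand, whose counts were 0.85% to 7.18% of those of Psme1.

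The immunoproteasome genes, which are not members, stood beside PA28. Psmb8 was at 478, 455, 470 and 537 CPM in TuMon1, against 255, 222, 267 and 276 CPM in TuMon2. All 3 genes were higher in TuMon1 than in TuMon2, with log2 differences of 0.93 (Psmb8), 1.39 (Psmb9) and 1.17 (Psmb10), and all 3 were higher in MC38_TuMac than in LLC_TuMac. None was called between TuMon2 and LLC_spMon, where the median of their log2 differences was -0.14. The ratio of Psmb8, Psmb9 and Psmb10 to Psmb5, Psmb6 and Psmb7, each as mean CPM per kb of transcript, averaged 1.63 in TuMon1, 0.995 in TuMon2, 1.33 in MC38_spMon and 1.20 in LLC_spMon. The 1 MC38_spMon library without foreign transcripts was at 1.60, inside the range of TuMon1 (1.49 to 1.73).

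Between the tumor monocytes, every difference in the core, the cap and the chaperones was smaller than those of PA28, and each one called was higher in TuMon1. In TuMon1 against TuMon2, 32 of 48 members were called higher and 0 lower at an edgeR adjusted p under 0.05, where 48.9% of 13200 genes were called in either direction and 26.8% higher. The same 0 lower calls stood with DESeq2. The libraries of the groups did not overlap for 32 members, but this was not counted over all genes, so the number has no background. The median log2 difference was 0.28 over the members and 0.06 over all genes. The core gave 9 of 14 higher (median 0.27), the cap 12 of 17 (0.21) and PA28 2 of 2 (0.88). The count of 32 was 21 without TuMon2 replicate 2 and 21 without TuMon1 replicate 4. Other markers moved in the same comparison. In TuMon1, 6 of 6 cell cycle genes were higher (summed level 241 to 264 CPM, against 113 to 131 CPM in TuMon2) and 3 of 4 dendritic genes were higher (9.21 to 12.2 CPM, against 2.2 to 3.93 CPM). Of 3 tested T and NK cell genes 2 were higher (5 genes, 3.59 to 5.81 CPM, against 0.259 to 0.343 CPM in TuMon2, where Cd3e and Cd3g were at 0), and of 5 neutrophil genes 3 were lower and 1 higher (25.7 to 31.6 CPM, against 73.9 to 109 CPM). Of 4 epithelial genes the 3 tested were lower in TuMon1 (5.6 to 7.83 CPM, against 41.3 to 65.6 CPM in TuMon2). Their part in the result was not tested.

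Within the core, the gain was uneven. Psma5, an alpha ring subunit, had 135, 136, 143 and 147 CPM in TuMon1, against 85.9, 79.6, 93.7 and 94.9 CPM in TuMon2 (log2 difference 0.67 ± 0.08, edgeR adjusted p = 4.94e-07). Psma4, of the same ring, had 207, 205, 204 and 213 CPM in TuMon1, against 137, 122, 129 and 134 CPM in TuMon2 (0.67 ± 0.07, edgeR adjusted p = 3.45e-08). The groups did not overlap for either gene, whose exons overlap other genes (Psma5 an antisense RNA), so their counts may hold some of those reads. Psmb6, the subunit with caspase-like activity, was next at 0.57 ± 0.09. Psmb5, the chymotrypsin-like subunit and the target of the drug bortezomib, was at 65.6, 61.4, 64 and 76.4 CPM in TuMon1, against 62.8, 55.8, 62.1 and 64.1 CPM in TuMon2, and was not called (0.13). Psma3, Psma6, Psma7 and Psmb1 were likewise not called, with log2 differences of 0.15, 0.11, 0.03 and 0.07.

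In the cap, all 6 ATPases were higher in TuMon1 than in TuMon2, in a narrow range of log2 differences from 0.19 (Psmc6) to 0.38 (Psmc4). Psmd7, a non-catalytic partner of the deubiquitinase subunit, led the other cap subunits at 0.46 ± 0.08 (edgeR adjusted p = 6.49e-05). The cap subunits that were not called were Psmd1 (-0.10), Psmd2 (0.10), Psmd6 (0.02), Psmd8 (0.10) and Psmd14 (0.12). Among the assembly chaperones of the core, Psmg1, Psmg2 and Psmg3 were higher (0.36 to 0.42). The inhibitor Psmf1 was higher by 0.38.

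**Figure D2:**
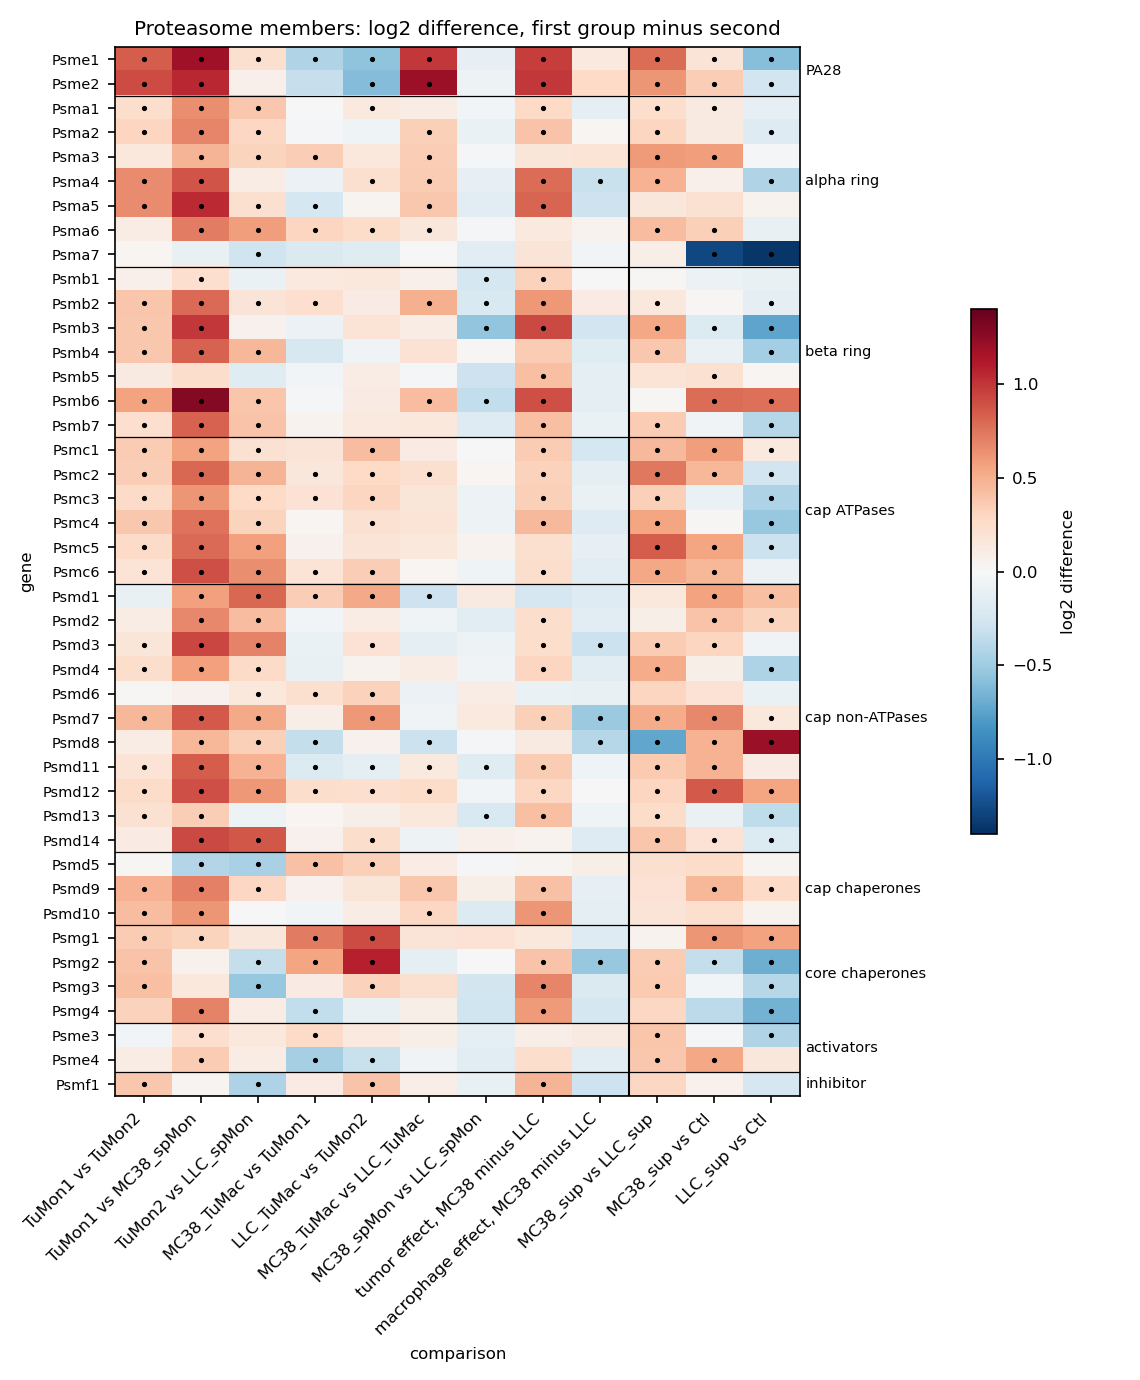
Log2 difference, first group minus second, of 43 classed members (rows, grouped by role) in 12 comparisons (columns); dots mark an edgeR adjusted p under 0.05, the vertical line separates in vivo from culture, and colors saturate at 1.4. PA28 has the darkest red of the classes in TuMon1 vs TuMon2 and MC38_TuMac vs LLC_TuMac and is pale in TuMon2 vs LLC_spMon, where most cap subunits carry dots, and Psma7 and Psmd8 stand out in culture.

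Against the spleen, TuMon1 showed a rise of nearly the whole machine. In TuMon1 against MC38_spMon, 38 members were higher and 1 lower (70.1% of all genes were called in either direction, 33.5% higher), and without the libraries with foreign transcripts 32 were higher and 1 lower. Upper quartile scaling gave 35 and 2 and moved the median of all genes by -0.14. The median log2 difference was 0.66 over the members and -0.04 over all genes. The cap gave 16 of 17 (median 0.76), the core 12 of 14 (0.75) and PA28 2 of 2 (1.12). Psmb6 was at 152, 159, 136 and 164 CPM in TuMon1, against 65.7, 65.5, 56.7 and 61.5 CPM in MC38_spMon, the widest gap of the core (1.29 ± 0.10, edgeR adjusted p = 1.18e-11; 1.30 without the libraries with foreign transcripts). Psmb5 (0.24) and Psma7 (-0.10) were the core genes not called, and Psmd6 (0.06) the cap gene not called.

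Psmd14, the deubiquitinase of the cap, had 112, 113, 114 and 121 CPM in TuMon1, against 59.7, 58.9, 60.6 and 63.7 CPM in MC38_spMon. In the LLC mice it had 110, 100, 110 and 104 CPM in TuMon2, against 60.3, 60.8, 61.9 and 48.6 CPM in LLC_spMon. Both tumor groups lay far above their spleen groups, by 0.92 ± 0.08 and 0.87 ± 0.08 on the log2 scale (edgeR adjusted p = 8.12e-11 and 3.43e-10), and the difference between these changes was 0.05. Without the libraries with foreign transcripts the first was 0.85.

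TuMon2 against LLC_spMon gave a split picture by class. Of the 48 members 28 were higher and 6 lower (62.6% of all genes called, 28.6% higher and 34.0% lower), or 22 higher and 10 lower with upper quartile scaling, and the median was 0.23 against -0.05 for all genes. The cap gave 16 of 17 higher with a median of 0.48, led by Psmd14, by Psmd1 (0.81), a scaffold of the cap, and by Psmd3 (0.70). The core gave 9 higher and 1 lower of 14, with a median of 0.26. Psma7 was the lower core gene, with 180, 160, 183 and 187 CPM in TuMon2, against 216, 229, 207 and 209 CPM in LLC_spMon (-0.28). PA28 gave only the borderline call of Psme1. Psmg2 and Psmg3, which assemble the alpha ring, were lower (-0.34 and -0.53), and so was the inhibitor Psmf1 (-0.43).

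The change from spleen was greater in MC38 than in LLC tumors for 33 members and smaller for 0 (edgeR interaction; 42.9% of all genes called, 23.8% higher), with a median of 0.36 against 0.04. In 8 alternative settings Psmd1 was also called, as smaller in MC38 (-0.23, edgeR adjusted p = 0.0548 in the fit reported here). Without the libraries with foreign transcripts Psmd1 was at -0.02. Beside PA28, the largest differences in the core were in Psmb3 (0.92), Psmb6 (0.91), Psma5 (0.82) and Psma4 (0.78). The core gave 10 of 14 and the cap 12 of 17. Without the libraries with foreign transcripts 13 members remained called, all among the 33, and they included Psme1, Psme2, Psma4, Psma5, Psmb2, Psmb3, Psmb6 and Psmb7 and, of the cap, Psmc1, Psmd11 and Psmd12. The 9 other cap genes missed the threshold with 1 MC38_spMon library left, at log2 differences from 0.18 (Psmd2) to 0.41 (Psmd7), against 0.24 (Psmd3) to 0.45 (Psmc4) with all libraries. These comparisons share their tumor and spleen libraries and are not independent of one another.

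Psmd5, an assembly chaperone of the cap's ATPase ring, went the other way. It had 22.8, 22.1, 19.6 and 19.8 CPM in TuMon1, against 27.5, 29.3, 28.2 and 27.1 CPM in MC38_spMon. It had 19.3, 20.5, 20 and 23.1 CPM in TuMon2, against 25.9, 28.1, 26.8 and 33.1 CPM in LLC_spMon. Neither pair of groups overlapped, and the log2 differences were -0.41 (-0.37 without the libraries with foreign transcripts) and -0.46. In macrophages it was higher than in monocytes of both tumors (0.41 in MC38 and 0.33 in LLC). Psmd5 was the 1 member that was lower in TuMon1 than in spleen. The chaperones Psmd9 and Psmd10 were higher in TuMon1 than in MC38_spMon (0.70 and 0.62).

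Markers of other cells differed between tumor and spleen. The summed level of 5 neutrophil genes was 25.7 to 31.6 CPM in TuMon1 and 73.9 to 109 CPM in TuMon2, against 379 to 1590 CPM in MC38_spMon and 1370 to 2170 CPM in LLC_spMon, with 3 of 5 genes called lower and 1 higher in TuMon1 and 4 lower in TuMon2. That of 4 dendritic cell genes was 9.21 to 12.2 CPM in TuMon1 and 2.2 to 3.93 CPM in TuMon2, against 28.1 to 35.4 CPM in MC38_spMon and 49.3 to 55.2 CPM in LLC_spMon, with 3 of 4 genes lower in each tumor and 1 higher in TuMon1. The T and NK cell genes summed to 3.59 to 5.81 CPM in TuMon1, against 3.68 to 4.9 CPM in MC38_spMon (of 3 tested 1 higher and 2 lower), and to 0.259 to 0.343 CPM in TuMon2, against 12.9 to 17.7 CPM in LLC_spMon (3 of 3 lower). The 4 epithelial genes (3 tested) summed to 41.3 to 65.6 CPM in TuMon2, against 1.16 to 1.94 CPM in LLC_spMon (3 higher). They summed to 5.6 to 7.83 CPM in TuMon1, against 0.529 to 14.4 CPM in MC38_spMon (1 higher, 2 lower). Of 3 B cell genes 2 were lower in TuMon1 and 3 in TuMon2. Of 5 connective tissue genes 5 were lower in TuMon1 and 2 higher in TuMon2. Cell cycle genes went opposite ways in the tumors, with 5 of 6 higher in TuMon1 (241 to 264 CPM, against 113 to 235 CPM in MC38_spMon) and 5 of 6 lower in TuMon2 (113 to 131 CPM, against 175 to 245 CPM in LLC_spMon). For 6 of 6 of them the change from spleen was larger in MC38 than in LLC, with a median log2 difference of 2.48. The part of these markers in the results was not tested. Between the spleen groups 0 members were higher and 6 lower in MC38_spMon (edgeR; 28.4% of all genes called, 14.4% higher), or 2 and 1 with upper quartile scaling and 1 and 3 with DESeq2. Their number was 0 without the libraries with foreign transcripts, 15 without MC38_spMon replicate 4, the library free of them, and 3 without MC38_spMon replicate 3. The 6 were Psmb1, Psmb2, Psmb3, Psmb6, Psmd11 and Psmd13.

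**Figure D3:**
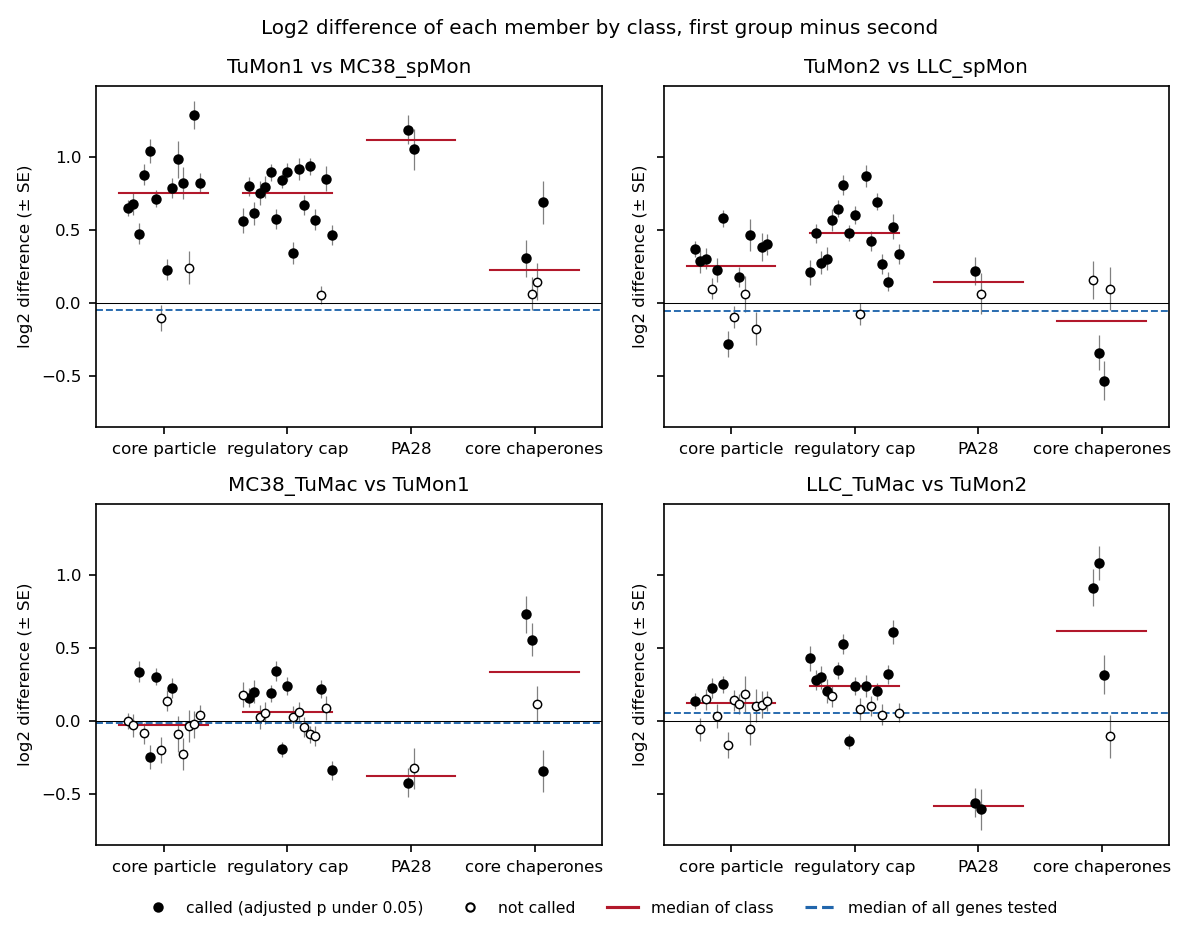
Log2 difference ± SE of each member of 4 classes in tumor monocytes against spleen monocytes (top) and macrophages against monocytes of the same tumor (bottom); filled points were called, red lines are class medians and the dashed line the median of all genes. In TuMon2 vs LLC_spMon the cap median is 0.48 and the PA28 median 0.15, and in LLC_TuMac vs TuMon2 the cap median is 0.24 and the PA28 median -0.58.

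From monocyte to macrophage, PA28 and the cap moved apart in the LLC tumor. In LLC_TuMac against TuMon2, 21 members were higher and 5 lower (55.5% of all genes called, 29.2% higher and 26.3% lower), or 35 and 3 with upper quartile scaling, which raised the median of all genes by 0.15. The members' median was 0.15 against 0.06 for all genes. The cap gave 11 higher and 1 lower of 17, and the core 3 of 14 higher. The lower cap gene, Psmd11 (-0.14), was at 0.008 with upper quartile scaling. Psmd7 had 103, 94, 125 and 117 CPM in LLC_TuMac, against 78.7, 64.8, 76.1 and 68 CPM in TuMon2, without overlap (0.61 ± 0.08, edgeR adjusted p = 1.33e-06).

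In the MC38 tumor the calls of macrophages against monocytes went both ways too, and PA28 (median -0.37) again stood below the cap (0.06). In MC38_TuMac against TuMon1, 15 members were higher and 7 lower (52.7% of all genes called, 24.8% higher and 27.9% lower), or 19 and 4 with upper quartile scaling, which raised the median of all genes by 0.11, and the members' median was 0.04 against -0.02. The cap gave 6 higher, with Psmd1 first (0.34), and 2 lower, Psmd8 (-0.34) and Psmd11 (-0.19). The core gave 3 higher, with Psma3 first (0.34), and 1 lower, Psma5 (-0.25). The macrophage change was smaller in MC38 than in LLC for 5 members and larger for 0, near the share among all genes (14.5% of all genes called, 8.27% smaller and 6.25% larger). The 5 members were Psmg2 (-0.53), Psmd7 (-0.52), Psmd8 (-0.40), Psma4 (-0.31) and Psmd3 (-0.30). Their number was 2 without TuMon2 replicate 2, 3 or 4 or TuMon1 replicate 4, and 3 without TuMon2 replicate 1, TuMon1 replicate 2 or 3, LLC_TuMac replicate 3 or 4 or MC38_TuMac replicate 2.

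Among the core, the cap, PA28 and the chaperones, the largest rises in macrophages of both tumors were those of Psmg1 and Psmg2, chaperones of the core. Psmg1 had 15.5, 15, 17.3 and 13.8 CPM in MC38_TuMac, against 9.51, 9.47, 8.94 and 9.12 CPM in TuMon1. It had 13.7, 10.5, 15.6 and 14.9 CPM in LLC_TuMac, against 7.75, 6.26, 7.27 and 7.67 CPM in TuMon2. Macrophages lay above monocytes in both tumors (0.73 ± 0.12 and 0.92 ± 0.13; edgeR adjusted p = 2.52e-05 and 1.76e-06). Psmg2, the partner of Psmg1 in an alpha ring chaperone, had 16, 12.1, 15.4 and 11.8 CPM in MC38_TuMac, against 9.21, 10, 9.71 and 8.57 CPM in TuMon1. It had 14.3, 13.1, 17.1 and 16.2 CPM in LLC_TuMac, against 6.51, 6.88, 7.49 and 7.61 CPM in TuMon2 (0.56 ± 0.11 and 1.09 ± 0.12), again without overlap.

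Psme4, an activator of the nucleus, fell in the macrophages of both tumors, by 0.47 in MC38_TuMac and by 0.32 in LLC_TuMac on the log2 scale. Psme3, the nuclear relative of PA28, was higher in MC38_TuMac than in TuMon1 (0.27) and was not called between TuMon1 and TuMon2 (-0.04). Psmc3ip, which acts in recombination and is no proteasome subunit, had 6.85, 7.98, 6.63 and 7.89 CPM in MC38_TuMac, against 2.12, 2.13, 2.03 and 1.56 CPM in TuMon1 (1.90 ± 0.33). The summed level of 6 cell cycle genes was 911 to 939 CPM in MC38_TuMac and 253 to 353 CPM in LLC_TuMac, against 241 to 264 CPM in TuMon1 and 113 to 131 CPM in TuMon2 (6 of 6 genes higher in the macrophages of each tumor), and its part in these changes was not tested.

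Between the macrophages of the tumors, 17 members were higher and 2 lower in MC38_TuMac than in LLC_TuMac (45.3% of all genes called, 22.4% higher and 22.9% lower; median 0.14 against 0.00). PA28 led, the core gave 7 of 14 higher and 0 lower, with Psmb2 (0.50) and Psmb6 (0.43) first, and the cap gave 3 higher and 2 lower. The lower cap genes were Psmd8 (-0.30) and Psmd1 (-0.29). Markers of epithelium, 4 genes in sum of which 3 were tested and called lower in MC38_TuMac, stood at 5.5 to 8.08 CPM in MC38_TuMac, against 91.6 to 144 CPM in LLC_TuMac, and at 5.6 to 7.83 CPM in TuMon1, against 41.3 to 65.6 CPM in TuMon2, and their part was not tested. Epcam was at 0 in LLC_TuMac.

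The ratio of class levels within each library does not depend on the scaling of libraries. Each class level was the mean CPM per kb of transcript over its genes, and transcript lengths bear on the size of a ratio. PA28 over core was 2.52 to 2.58 in MC38_TuMac, 1.23 to 1.59 in LLC_TuMac, 3.16 to 3.47 in TuMon1, 2.11 to 2.36 in TuMon2, 2.22 to 2.58 in MC38_spMon and 2.15 to 2.31 in LLC_spMon. TuMon1 stood above all groups and LLC_TuMac below all in vivo groups, while TuMon2 overlapped both spleen groups. Cap over core gave another order, with 0.563 to 0.592 in MC38_TuMac, 0.639 to 0.705 in LLC_TuMac, 0.536 to 0.560 in TuMon1, 0.582 to 0.604 in TuMon2, 0.521 to 0.601 in MC38_spMon and 0.484 to 0.503 in LLC_spMon. LLC_TuMac was highest in vivo and LLC_spMon lowest, neither overlapping another in vivo group. All 48 members together took 0.548% of scaled counts in MC38_TuMac, 0.478% in LLC_TuMac, 0.562% in TuMon1, 0.449% in TuMon2, 0.350% in MC38_spMon and 0.375% in LLC_spMon on average.

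**Figure D4:**
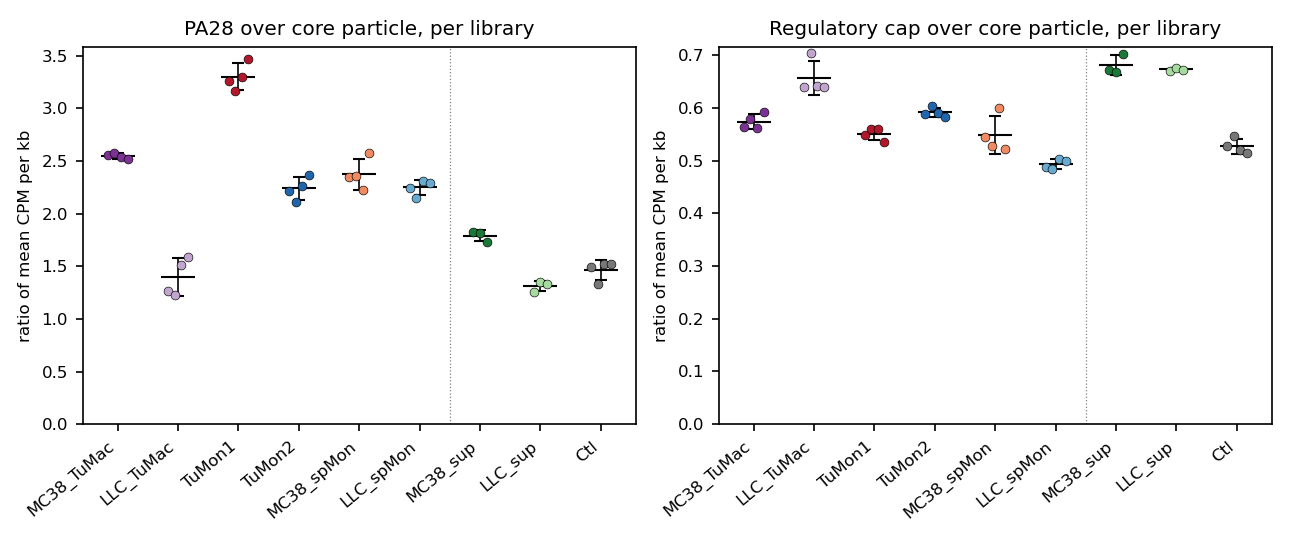
Ratio of mean CPM per kb of PA28 to the core particle (left) and of the regulatory cap to the core particle (right) in each library; points are libraries and bars the group mean ± SD. PA28 over core peaks in TuMon1 at 3.30 on average, and cap over core is highest in the cells given supernatant, at 0.681 in MC38_sup and 0.674 in LLC_sup. For LLC_sup against Ctl the median log2 differences of cap and core were close, at -0.085 and -0.121.

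In culture, PA28 was again higher with MC38 than with LLC supernatant. Psme1 had 224, 230 and 211 CPM in MC38_sup and 128, 129 and 131 CPM in LLC_sup, against 198, 170, 206 and 206 CPM in Ctl. Psme2 had 174, 176 and 160 CPM in MC38_sup and 105, 115 and 113 CPM in LLC_sup, against 139, 120, 136 and 138 CPM in Ctl. MC38_sup lay above Ctl and LLC_sup below it for both genes, with no overlap. MC38_sup exceeded LLC_sup by 0.78 ± 0.08 (Psme1) and 0.61 ± 0.07 (Psme2) on the log2 scale (edgeR adjusted p = 2.89e-05 and 9.45e-05). Against Ctl, the log2 differences of LLC_sup were -0.59 ± 0.07 and -0.26 ± 0.07, and those of MC38_sup 0.19 ± 0.07 and 0.35 ± 0.07. Without the libraries with foreign transcripts they were -0.64 and -0.30 for LLC_sup and 0.19 and 0.37 for MC38_sup, all called. The call of Psme1 between MC38_sup and Ctl (edgeR adjusted p = 0.0374) was lost in 4 settings, and that of Psme2 between LLC_sup and Ctl (0.00525) was lost without LLC_sup replicate 1.

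Between the supernatants, 29 members were higher and 1 lower in MC38_sup than in LLC_sup (40.1% of all genes called, 21.6% higher and 18.5% lower; median 0.35 against 0.05), and 37 and 1 without the libraries with foreign transcripts. All 6 cap ATPases were higher, with a median of 0.55. Psmc5, one of them, had 114, 116 and 117 CPM in MC38_sup and 63.3, 65.4 and 64.1 CPM in LLC_sup, against 77.6, 84.6, 76.7 and 77.2 CPM in Ctl, with the 3 groups apart (0.84 ± 0.05 between supernatants, edgeR adjusted p = 1.88e-06). The core gave 9 of 14, among which Psma3 was first (0.60). Psmb8, Psmb9 and Psmb10 were higher as well (1.07, 1.06 and 1.44). Other markers moved in this comparison too. Of 5 neutrophil genes 4 were higher in MC38_sup and 0 lower, though their sum was 1430 to 1720 CPM, against 1700 to 1750 CPM in LLC_sup. Of 3 tested dendritic genes 2 were higher and 0 lower (4 genes, 3.17 to 4.98 CPM, against 0.171 to 0.356 CPM). Of 6 cell cycle genes 5 were lower and 0 higher (471 to 542 CPM, against 892 to 942 CPM). Their part in the result was not tested.

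Psmd8, a lid subunit of the cap, was the single member that was lower in MC38_sup. It had 216, 220 and 209 CPM in MC38_sup and 356, 349 and 359 CPM in LLC_sup, against 166, 145, 155 and 148 CPM in Ctl. Both supernatants lay above Ctl, and LLC_sup above MC38_sup (1.21 ± 0.06 for LLC_sup against Ctl, edgeR adjusted p = 1.82e-08; -0.72 ± 0.06 for MC38_sup against LLC_sup, adjusted p = 9.85e-06). Its counts were whole in 34 of 34 libraries.

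The supernatants shared a drop in Psma7. This alpha ring subunit had 110, 115 and 110 CPM in MC38_sup and 107, 100 and 108 CPM in LLC_sup, against 273, 248, 284 and 274 CPM in Ctl. Untreated cells lay far above both (-1.27 ± 0.06 for MC38_sup and -1.36 ± 0.06 for LLC_sup against Ctl, edgeR adjusted p = 2.19e-08 and 1.43e-08). The 6 other alpha subunits had log2 differences from 0.07 to 0.58 in MC38_sup and from -0.42 to 0.05 in LLC_sup. Psmb6 rose with both, to 163, 172 and 156 CPM in MC38_sup and 158, 167 and 163 CPM in LLC_sup, against 93.9, 87.4, 95.6 and 104 CPM in Ctl (0.78 and 0.77). Since both comparisons use the Ctl libraries, their likeness is not independent. Without the libraries with foreign transcripts Psma7 was at -1.27 and -1.39 and Psmb6 at 0.81 and 0.74.

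**Figure D5:**
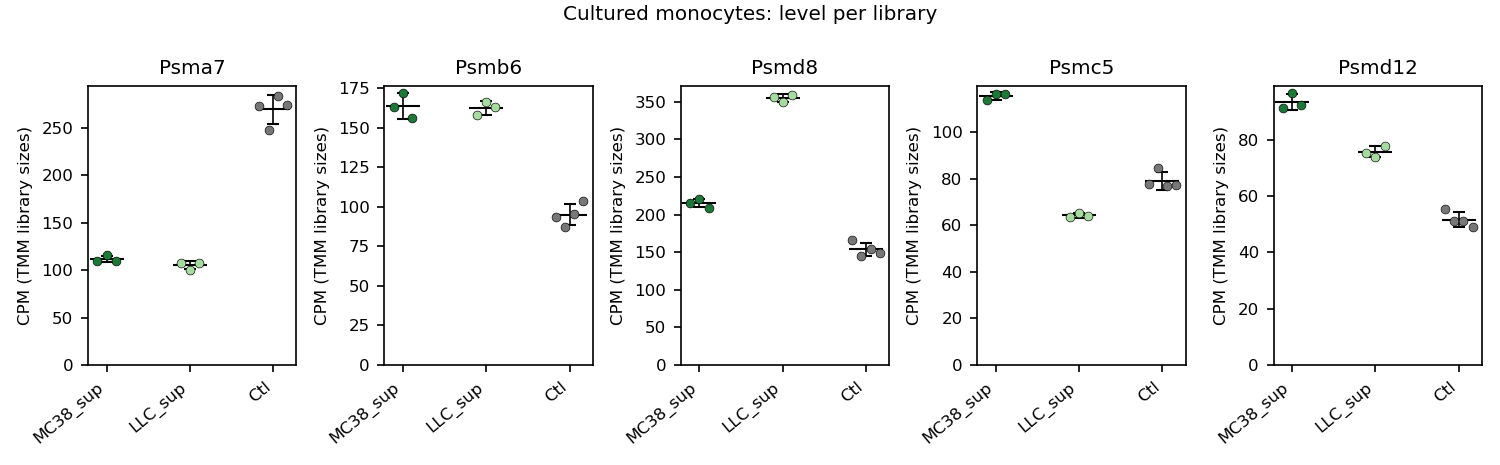
Level in CPM of 5 members in cultured monocytes; points are libraries, bars the group mean ± SD. Psma7 falls to 111.7 and 105.1 CPM in MC38_sup and LLC_sup against 269.7 CPM in Ctl, Psmd8 is highest in LLC_sup (354.9 CPM), and Psmc5 is highest in MC38_sup.

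Against untreated cells the supernatants parted by class. In MC38_sup 23 members were higher and 5 lower (67.9% of all genes called, 35.4% higher and 32.5% lower; median 0.20 against 0.05), or 27 and 7 without the libraries with foreign transcripts and 21 and 8 with upper quartile scaling. The cap gave 12 of 17 higher and 0 lower (median 0.46) and the core 5 higher and 2 lower (0.10). Psmd12, another lid subunit, had 91.3, 96.7 and 92.5 CPM in MC38_sup and 75.4, 73.9 and 77.9 CPM in LLC_sup, against 55.3, 51, 51.2 and 48.9 CPM in Ctl (0.86 ± 0.06 and 0.55 ± 0.06).

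In LLC_sup 10 members were higher and 24 lower than in Ctl (68.4% of all genes called, 32.3% higher and 36.1% lower; median -0.15 against -0.07), or 13 and 26 without the libraries with foreign transcripts. The core gave 1 higher and 7 lower, the ATPases 1 and 4, and the other cap subunits 5 and 3. Psmb3, a beta ring subunit whose counts were not whole in 34 of 34 libraries, had 90.1, 93.3 and 94.6 CPM in MC38_sup and 65.3, 63 and 62.8 CPM in LLC_sup, against 108, 98.8, 110 and 108 CPM in Ctl (-0.74 ± 0.05 for LLC_sup). The chaperones of the core parted too, with Psmg1 higher (0.56) and Psmg2, Psmg3 and Psmg4 lower (-0.68, -0.40 and -0.66). Cap over core was 0.668 to 0.703 in MC38_sup and 0.671 to 0.677 in LLC_sup, against 0.515 to 0.547 in Ctl, so both supernatants lay above untreated cells. For LLC_sup this ratio of means does not show a shift of the whole class. The median log2 differences from Ctl were close, at -0.085 for the cap and -0.121 for the core. Psma7 in the core (-1.36) and Psmd8 in the cap (1.21) had the largest differences of their classes. PA28 over core was 1.73 to 1.82 in MC38_sup and 1.26 to 1.35 in LLC_sup, against 1.33 to 1.52 in Ctl, where LLC_sup overlapped Ctl through Ctl replicate 2 alone, the library with muscle transcripts (1.50 to 1.52 without it). Cell cycle genes summed to 471 to 542 CPM in MC38_sup and 892 to 942 CPM in LLC_sup, against 2600 to 3300 CPM in Ctl (5 of 6 genes lower with each supernatant), and Psmc3ip was lower with both (-1.59 and -1.67). The part of this difference in the results was not tested.

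Genes that work with the proteasome did not move as one. Of 9 other subunits and bound factors, 6 were higher and 0 lower in TuMon1 than in MC38_spMon, and 4 and 0 in TuMon2 against LLC_spMon, where 70.1% and 62.6% of all genes were called in either direction. Of 13 ubiquitin genes and shuttles 8 were higher and 3 lower in TuMon1, and 7 and 1 in TuMon2. Of 4 genes of transcriptional control 1 was higher and 1 lower in TuMon1, and 2 and 1 in TuMon2. Adrm1, a ubiquitin receptor of the cap, was higher in both (0.79 and 0.42). In macrophages against monocytes, 4 of the 9 other subunits and bound factors were higher and 3 lower in MC38, and 4 and 2 in LLC. Of all genes, 52.7% (MC38) and 55.5% (LLC) were called there. The deubiquitinases Usp14 and Uchl5 were higher in macrophages than in monocytes of both tumors, Usp14 by 0.90 in MC38 and 0.92 in LLC and Uchl5 by 0.75 and 0.67. Nfe2l1, the transcription factor known to raise proteasome genes when the protease is inhibited, was not called in TuMon1 against MC38_spMon (-0.06) and was higher in TuMon2 than in LLC_spMon (0.32). In culture it was higher than in Ctl with both supernatants (0.85 in MC38_sup and 1.27 in LLC_sup), as was Nfe2l2 (0.70 and 1.21). Of the 4 genes of transcriptional control 2 were higher and 2 lower with each supernatant. Of all genes, 67.9% (MC38_sup) and 68.4% (LLC_sup) were called against Ctl.

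The tissue-restricted core subunits stood at the edge of detection. Psma8, a subunit of the testis, averaged 26.8 counts per library and Psmb11, a subunit of the thymus, 12.8. Psma8 was called higher in macrophages (1.05 in MC38, lost in 4 settings, and 1.90 in LLC) and Psmb11 higher in TuMon2 than in LLC_spMon (1.25 ± 0.46), a call lost in 4 settings. In LLC_sup against Ctl, Psma8 was higher (1.09) and Psmb11 lower (-1.27). Psme3ip1, an interaction partner of Psme3, was higher in TuMon1 than in TuMon2 (0.29) and in MC38_sup than in LLC_sup (0.62). Counts of Psmb11 were not whole in 34 of 34 libraries.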

How the data were processed

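Polyadenylated RNA of sorted cells was made into libraries with a stranded KAPA kit from 100 ng of RNA and 14 cycles of PCR, per the labels' protocols. The authors deposited one table of estimated counts (expected counts) per Entrez gene for 34 libraries. CASAVA 1.8.2 and the build GRCm38 (mm10) are named in the submitters' processing notes, with aligner and counter not given in the sources used here. Of the values, 14.48% were not whole, among them those of 12 members, which can reflect reads shared between similar genes. 100 identifiers matched no gene name and hold 1.43% of counts. Whether counting used strand is not given, so reads of overlapping antisense genes may be mixed.

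Counts were rounded, and the largest change of a library's total was 0.000368%. edgeR 4.0.16 in R 4.3.3 (TMM scaling, filterByExpr, robust quasi-likelihood F-test, Benjamini-Hochberg adjustment over all genes tested, threshold 0.05) was fitted to 24 in vivo libraries in 6 groups (13200 genes) and, apart, to 10 cultured libraries in 3 groups (12603 genes). Differences are log2, first group minus second, with SE from the F statistic. CPM values are counts over the scaled library size, so levels of in vivo and cultured libraries are set by separate scalings. The interaction was the change from spleen (or from monocyte to macrophage) in MC38 minus that in LLC. Class levels per kb used GENCODE M21 transcript lengths. The alternatives were upper quartile or RLE factors, leaving the low-count filter off, a stricter filter, DESeq2 1.42.0, only the groups compared, the replicate number as a block, leaving out the libraries with foreign transcripts, and leaving out each library. Scripts were tested on simulated data. Sampling error of counts is the only error that depth sets.

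The text names PA28 in every comparison and, per class, up to 4 members with the smallest adjusted p, the largest difference and calls against the class median. Members, lists and tests were chosen with earlier results of these data known. The names of members without a call, and values per library of 19 members, were chosen after their values were seen. Paaf1 was not analysed here.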

Additional observations from a re-analysis of the deposited data

Results flagged for a closer look

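Changes that differed between the tumors were tested as interactions in edgeR. The change from spleen to tumor monocytes was larger in MC38 for 33 of 48 members and smaller for 0. Of all genes, 23.8% were called larger and 19.1% smaller. The log2 difference between the tumors was 0.97 for Psme1, 0.99 for Psme2, 0.82 for Psma5, 0.92 for Psmb3, 0.45 for Psmc4, 0.62 for Psmd10, 0.42 for Psmd13, 0.68 for Psmg3, 0.47 for Psmf1 and 2.0 for Psmc3ip. Without the libraries with foreign transcripts Psmc4, Psmd13, Psmg3 and Psmf1 were not called, at 0.36, 0.34, 0.55 and 0.43 (edgeR adjusted p = 0.0908, 0.0811, 0.0896 and 0.0546). The change from monocyte to macrophage was smaller in MC38 for 5 of 48 members, a share near that of all genes, of which 8.27% were called smaller. These differences were -0.31 for Psma4, -0.30 for Psmd3, -0.52 for Psmd7, -0.40 for Psmd8 and -0.53 for Psmg2. Leaving out one library gave 2 to 6 members.

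Among the members with values per library and the class ratios, 16 groups of 4 held a library far from the other 3, that is, the gap from the highest or lowest library to its neighbor, as a share of the group's range, was above the critical value of Dixon's test. A small gap counts where the other 3 lie close together. In untreated replicate 2, the library with muscle transcripts, Psme2 was at 120 CPM (136 to 139 in the others), Psmb3 at 98.8 CPM (108 to 110), Psma5 at 119 CPM (81.1 to 84.8), Psmc5 at 84.6 CPM (76.7 to 77.6) and PA28 over core at 1.33 (1.50 to 1.52). In the tumor macrophages, Psmf1 was at 31.9 CPM in MC38_TuMac replicate 1 (27.9 to 28.3) and at 25 CPM in LLC_TuMac replicate 2 (27.9 to 28.4). Psme1 over Psme2 was 1.70 in MC38_TuMac replicate 4 (1.26 to 1.29), and cap over core was 0.705 in LLC_TuMac replicate 2 (0.639 to 0.643). In TuMon1, Psmd14 was at 121 CPM in replicate 4 (112 to 114), Psmd8 at 200 CPM in replicate 3 (222 to 226) and Psme4 at 120 CPM in replicate 2 (131 to 133). In TuMon2, Psmc5 was at 88.9 CPM in replicate 2 (97.2 to 98.9) and Psmd8 at 207 CPM in replicate 4, the others all rounding to 202. In the spleen, Psma7 was at 219 CPM in MC38_spMon replicate 4 (185 to 190), the library free of fat transcripts, and Psmd14 at 48.6 CPM in LLC_spMon replicate 4 (60.3 to 61.9). Over all members and ratios 32 of 350 groups (9.14%) held such a library, 6 of them untreated replicate 2, where Dixon's critical value lets through about 1 in 20 groups by chance.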

How the results depend on the processing

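Counts of members called moved by over 1.5 times in 4 comparisons. Between the spleen groups (6 called in edgeR) they were 3 with RLE scaling, 3 with upper quartile scaling, 3 with no filter, 1 with only the groups compared, 0 without the libraries with foreign transcripts and 3 to 15 leaving out one library. The larger change from spleen in MC38 (33) was called for 20 members with no filter and 13 without the libraries with foreign transcripts. The difference in macrophage change (5) was 3 with no filter and 2 to 6 leaving out one library, and TuMon1 against TuMon2 (32) was 21 to 34. Leaving out one library gave 27 to 39 in LLC_sup against Ctl (34) and 24 to 34 in MC38_sup against Ctl (28). Upper quartile scaling shifted the median of all genes by over 0.1 in 3 comparisons, which the text gives.

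The 313 single results recomputed under the alternatives were those called in the reported fit (without Psmg2 in the change from spleen, whose edgeR adjusted p rounds to 0.05), and Psme1 and Psme2 in every comparison, so no other member could gain a call here. Of their 5190 values 4716 kept direction and side of the threshold, 459 lost the call, 6 gained one (all of them Psme2 in MC38_TuMac against TuMon1) and 9 changed sign. Those 9 were Psme3 in TuMon1 against MC38_spMon (-0.003 without the libraries with foreign transcripts), Psmd11 in LLC_TuMac against TuMon2 (0.008 with upper quartile scaling), Psmb2 in LLC_sup against Ctl (0.009 with only the groups compared), and values of PA28 that were not called. Psme2 in TuMon2 against LLC_spMon was -0.025 with upper quartile scaling and -0.006 to 0.119 without one TuMon2 library. Between the spleens Psme1 was 0.06 without the libraries with foreign transcripts, and Psme2 was 0.005 with upper quartile scaling, 0.159 without those libraries and 0.032 with only the groups compared. The cause was not tested.

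Whether replicate numbers pair samples is not given and was not settled here. Correlations of same-numbered libraries' deviations lay between -0.283 and 0.154 in vivo (median 0.024) and between -0.363 and 0.273 in culture (median -0.06). Those of differently numbered libraries lay between -0.278 and 0.375 (median -0.003) and between -0.408 and 0.434 (median 0.026). These ranges pool all pairs of groups, so they cannot exclude pairing between some of them. With the replicate number as a block the counts were 32 for TuMon1 against TuMon2, 39 for TuMon1 against MC38_spMon, 33 for TuMon2 against LLC_spMon and 34 for the change from spleen, and none moved by over 1.5 times. Depth was not varied, and no limit of detection was computed.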
